A study of Homo sapiens with 6 samples.

Results

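The genes described here are p53 feedback regulators and p53 targets outside the apoptotic group, chosen by name: MDM2, PPM1D, GADD45A, PLK2, SESN1, TP53I3, GDF15 and BTG2. A gene was taken where a probe set of the array carried its symbol alone. That held for 7 of the 8 names, with 12 probe sets in all, out of 11963 genes with such a probe set; BTG2 was not analysed here. RNA came from U87 cells, a human glioblastoma line, and was hybridised to 6 Affymetrix arrays, 1 per sample. In the IRE1dn group, 3 arrays, the cells expressed a dominant negative transgene of IRE1alpha and are labelled as the clone U87 IRE1.NCK DN. In the ctrl group, 3 arrays, the cells carried the empty plasmid, and the label speaks of clones in the plural. The promoter driving the transgene is not given in the sources used here. All cells were grown for 16 h in DMEM with glutamine and 10% FBS before RNA isolation, with no other treatment named. The labels do not say whether the arrays of a group came from separate cultures. The p-values therefore reflect only how far these samples scattered, and that scatter may be technical. In bulk RNA of this kind, fewer cells of a type and less RNA per cell cannot be told apart. With 1 clone named for the IRE1dn cells, the transgene and the clone cannot be told apart.

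IRE1alpha, encoded by ERN1, is a sensor of unfolded protein in the endoplasmic reticulum that splices the XBP1 transcript. p53 is a transcription factor that is held low in unstressed cells by MDM2, a ubiquitin ligase, and that accumulates after DNA damage and other stresses. It then switches on genes for cell cycle arrest, DNA repair and antioxidant defence, along with its own inhibitors, MDM2 and the phosphatase PPM1D. U87 cells are known to carry wild-type p53. Several of these genes also answer to other signals: GDF15 and GADD45A to the stress factors ATF4 and CHOP, and PLK2 to serum.

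Signals are given in the arrays' scaled units, and log2 changes are IRE1dn minus ctrl on the scale log2(signal + 1.75). A probe set was tested where its mean log2 signal exceeded the 40th percentile of all probe sets, equal to a signal of 7.55; below that level a signal can be mostly background, which was not measured here. A gene is called higher or lower where limma's Benjamini-Hochberg adjusted p, taken over all 13329 probe sets tested, lay under 0.05, and it is counted by its brightest probe set. Arrays correlated at 0.973 to 0.980 within IRE1dn, 0.943 to 0.957 within ctrl and 0.867 to 0.907 between groups (Pearson, across tested probe sets, which are not independent replicates). For ACTB, the signal of the 3′ probe set over that of the 5′ one was 1.09 to 1.21 on all arrays except IRE1dn array 3, where it was 1.64. Without that array the calls of PPM1D and GADD45A ended, as given with those genes. Of all probe sets tested, 29.1% were called with all arrays. The shares were 21.8%, 16.0% and 17.1% without IRE1dn arrays 1, 2 and 3. What part the ratio had in the ended calls was not tested. Of 8 glioma and neural markers, 5 were tested, of which 1 rose and 1 fell. CHI3L1, a secreted glycoprotein of mesenchymal glioma, rose from 597 ± 306 in ctrl to 1636 ± 177 in IRE1dn (SD, n = 3 each; log2 change 1.63, SE 0.37; limma adjusted p = 0.0102). Its call ended with the mean of its 3 probe sets (limma adjusted p = 0.0720), of which 2 were higher and 1 lower in value in IRE1dn. OLIG2, a factor of the oligodendrocyte lineage, fell from 16.4 ± 7.93 to 3.42 ± 1.06 (SD, n = 3 each; log2 change -1.74, SE 0.41; limma adjusted p = 0.0107). It lay under the tested level on every IRE1dn array, so its mean passed the filter only through ctrl. Of its 2 probe sets, 1 was higher and 1 lower in value in IRE1dn. Without any single ctrl array it fell under the filter and was not tested. The same held with a pseudocount of 1, a 60th percentile filter, 1 probe set per gene and the mean of probe sets. With a pseudocount of 16 the change was -0.71. CD44 and VIM gave signals from 1450.4 to 5122.2 and were not called, while the astrocyte marker GFAP lay at 0.562 to 1.90. The mean log2 signals of S100B and SOX2 also lay under the tested level, although SOX2 read 8.28 on IRE1dn array 1. The summed signal of the 8 glioma and neural markers was 6055.8 to 8825.8 in IRE1dn and 4547.6 to 5393.2 in ctrl, CHI3L1 included. CHI3L1 gave 1461.7 to 1815.2 of it in IRE1dn and 245.4 to 802.2 in ctrl. With CHI3L1 left out, the summed signals of the groups overlapped. The part of these markers in the results was not tested. Of 12 measured markers of leukocyte, endothelial, epithelial, muscle and neuronal cells, 0 passed the filter, and their summed signal was 24.4 to 43.1 in IRE1dn and 34.8 to 56.7 in ctrl. ERN1 measured 12.3 ± 1.53 in ctrl and 11.1 ± 1.58 in IRE1dn (SD, n = 3 each; limma adjusted p = 0.766), and its probe set need not lie in the transgene, so it does not check the labels. XBP1 measured 232 ± 31.3 in ctrl and 123 ± 8.97 in IRE1dn (SD, n = 3 each). The log2 change was -0.90, with SE 0.18 and limma adjusted p = 0.00544. Splicing of XBP1 was not measured, and the XBP1 signal does not check the labels either.

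The p53 genes did not move one way. PLK2 and PPM1D rose, GDF15 and GADD45A fell, and MDM2, SESN1 and TP53I3 did not pass the threshold. These are 4 called genes of 7, 2 in each direction; of all 7808 genes tested by their brightest probe set, 31.3% were called, 16.2% higher and 15.0% lower. At the level of probe sets, 4 of the 8 tested were called against 29.1% of all those tested (15.7% higher, 13.4% lower). The balance of directions over all probe sets depends on the scaling: 54.0% of the calls were higher in IRE1dn as deposited, 50.1% after quantile normalization and 46.5% with the arrays' medians made equal. The arrays of the groups did not overlap for 6 of the 7 genes, against 48.7% of all genes tested. Of all probe sets tested, 46.0% had no overlap, 24.9% with IRE1dn above and 21.1% with IRE1dn below ctrl. The median log2 change was 0.32 over the 7 genes and 0.04 over all probe sets tested. With 7 genes, these shares are a description. The number of called genes was 2, PLK2 and GDF15, without IRE1dn array 3.

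**Figure D1:**
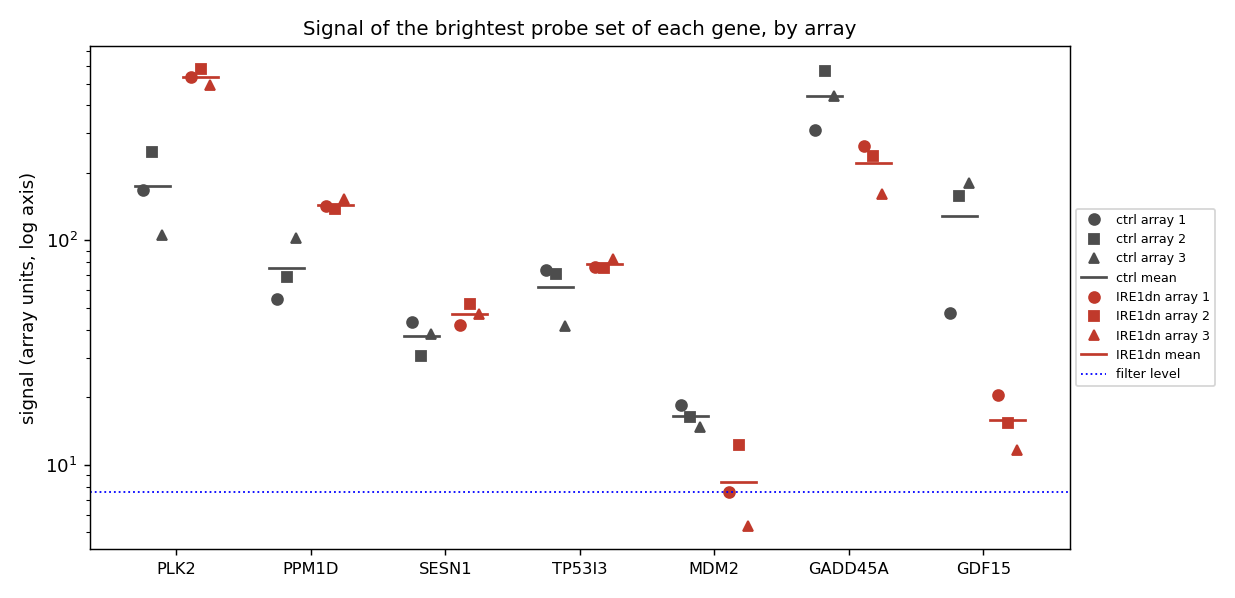
Signal of the brightest probe set of each gene on each of the 6 arrays (log axis, array units), with ctrl arrays in grey, IRE1dn arrays in red, horizontal bars at the group means and a dotted line at the signal equal to the filter level. The IRE1dn arrays lie above all ctrl arrays for PLK2, PPM1D and TP53I3, below them for MDM2, GADD45A and GDF15, while for SESN1 IRE1dn array 1 lies within the ctrl range.

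**Figure D2:**
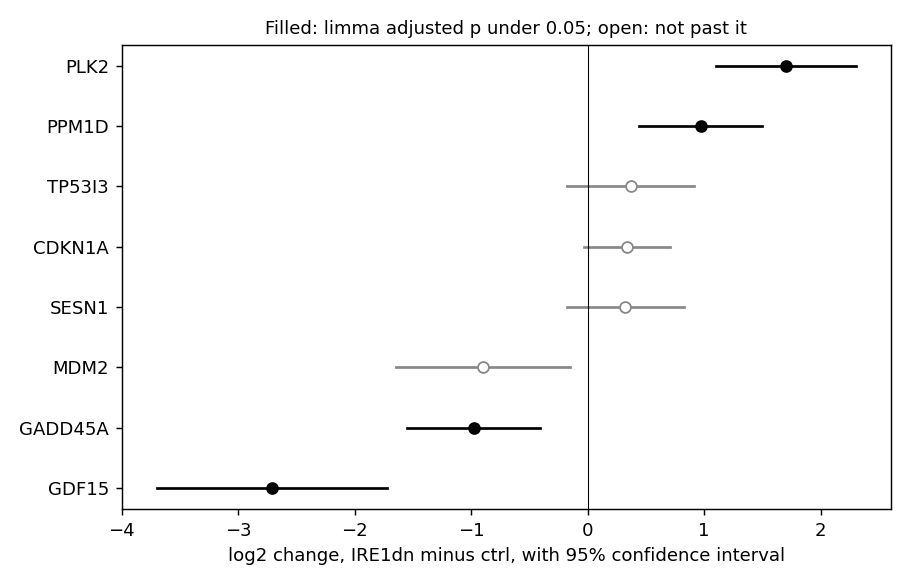
Log2 change, IRE1dn minus ctrl, of the same probe sets and of CDKN1A, with limma's 95% confidence intervals; filled points had an adjusted p under 0.05. PLK2 (1.70) and GDF15 (-2.71) lie at the ends, and the intervals of SESN1, TP53I3 and CDKN1A include 0.

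MDM2, the ligase that marks p53 for degradation, was dim in these cells. Its transcripts can start at a second promoter, which is known to be the p53-responsive one. The stretch printed next lies before that start and is shown because it holds, in capitals, a pair of adjacent p53 decamers, the consensus that p53 binds in pairs.
MDM2, RefSeq GRCh38.p14, chr12:68808918-68808947, plus strand: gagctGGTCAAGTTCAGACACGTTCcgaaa
The pair differs from the consensus at 2 letters in all. Pairs with at most 1 mismatch in each decamer and at most 3 bases between them occurred in 0.604% of the 35116 RefSeq promoter windows, which run from 250 bases before to 50 after a start. The match is a description of the sequence and not a measured binding site.

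MDM2 had 5 probe sets, and no array gave more than 18.4 units on any of them. The brightest, 217373_x_at, read 18.4, 16.3 and 14.8 on ctrl arrays 1 to 3 and 7.56, 12.3 and 5.33 on IRE1dn arrays 1 to 3. Every IRE1dn array was below every ctrl array, and IRE1dn array 3 was under the filter level. The log2 change was -0.90 (SE 0.34; 95% confidence interval -1.65 to -0.15) with a limma adjusted p of 0.0691, so it did not pass; it passed, at 0.0397, without the intensity trend in the variance model. The size of this change also depends on the pseudocount, and was -0.42 with a pseudocount of 16. The ending x_at marks a probe set that can bind related transcripts.

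The second tested probe set, 217542_at, read 11, 10.5 and 7.60 in ctrl and 4.77, 5.51 and 11.8 in IRE1dn. Those groups overlapped, since IRE1dn array 3 was the highest of the 6 (log2 change -0.40, SE 0.38; limma adjusted p = 0.463). The remaining MDM2 probe sets lay under the filter. Probe set 205386_s_at read 8.52, 11.3 and 5.40 in ctrl and 7.47, 4.5 and 0.219 in IRE1dn. Probe set 211832_s_at read 2.12, 3.39 and 3.51 in ctrl and 3.29, 0.463 and 1.83 in IRE1dn. Probe set 205385_at read 0.437, 2.27 and 1.33 in ctrl and 1.12, 4.76 and 2.96 in IRE1dn. Means were lower in IRE1dn for 4 of the 5 probe sets, and the groups overlapped on all except 217373_x_at. A change in MDM2 was therefore not measured firmly on these arrays.

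**Figure D3:**
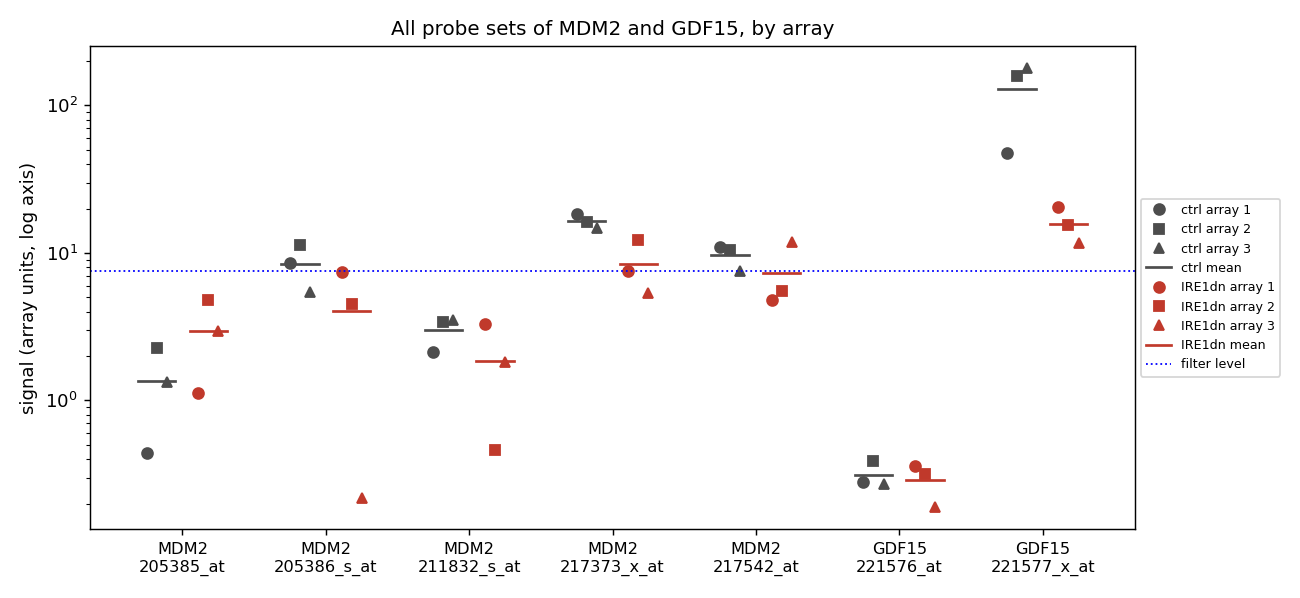
Signal of the 5 MDM2 and 2 GDF15 probe sets on each array (log axis, array units), drawn as in the plot of the brightest probe sets. MDM2 stays at or under 18.4 units throughout, and 1 of the 2 GDF15 probe sets lies under 0.4 units on all 6 arrays while the other separates the groups.

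PPM1D, the phosphatase WIP1 that switches off p53 and the kinases upstream of it, rose. Its signal was 54.9, 68.4 and 102.2 on ctrl arrays 1 to 3 and 142.5, 138.6 and 152.3 on IRE1dn arrays 1 to 3. All IRE1dn arrays were above all ctrl arrays and lay close together, while the highest ctrl array was 1.86 times the lowest. The means were 75.2 ± 24.3 in ctrl and 144 ± 7.09 in IRE1dn (SD, n = 3 each). The log2 change was 0.97, with SE 0.24 and limma adjusted p = 0.0135. The call ended without IRE1dn array 3 (limma adjusted p = 0.0599) although the change was still 0.93. Of all probe sets tested, 9.95% had a larger increase.

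The PPM1D promoter is shown for its exact match, in capitals, to TGACGTCA, the element bound by CREB and ATF family factors.
PPM1D, RefSeq GRCh38.p14, chr17:60600121-60600150, plus strand: agagagccgagTGACGTCAgcgggggagaa
On either strand, TGACGTCA occurred in 1.85% of RefSeq promoter windows. Among the 7 genes of the set with a window in the table, BTG2 included, it was found for PPM1D alone.

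PLK2, a polo-like kinase of the centriole cycle that p53 and serum both induce, rose the most. It read 168, 247.5 and 106.1 on ctrl arrays 1 to 3 and 535.6, 581.7 and 494.2 on IRE1dn arrays 1 to 3. Every IRE1dn array was well above every ctrl array, and the highest ctrl array was 2.33 times the lowest. The means were 174 ± 70.9 in ctrl and 537 ± 43.8 in IRE1dn (SD, n = 3 each), a ratio of 3.09, and the log2 change was 1.70 (SE 0.27; limma adjusted p = 0.00179). Leaving out single arrays gave changes from 1.39 to 1.99, each still past the threshold. Of all probe sets tested, 2.74% had a larger increase.

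The 250 bases before the PLK2 start are printed because this was the gene with the largest rise and its window held, in capitals, an exact p53 decamer and a TATAA box.
PLK2, RefSeq GRCh38.p14, chr5:58460087-58460336, minus strand: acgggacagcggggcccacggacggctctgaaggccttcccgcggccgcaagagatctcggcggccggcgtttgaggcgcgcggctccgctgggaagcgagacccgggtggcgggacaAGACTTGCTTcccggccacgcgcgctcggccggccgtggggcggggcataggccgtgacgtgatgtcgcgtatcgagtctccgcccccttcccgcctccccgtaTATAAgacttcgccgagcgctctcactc
The decamer begins 132 bases before the start and the TATAA box 28 bases before it. An exact single decamer occurred in 6.63% of RefSeq promoter windows and TATAA, on either strand, in 20.4%.

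GADD45A, which binds PCNA and takes part in DNA repair and G2 arrest, fell. Its signal was 311.5, 569.2 and 438 on ctrl arrays 1 to 3 and 262.5, 238.1 and 160.4 on IRE1dn arrays 1 to 3. The groups did not overlap, but the nearest arrays, ctrl 1 and IRE1dn 1, were close. The means were 439.5 ± 129 in ctrl and 220.3 ± 53.3 in IRE1dn (SD, n = 3 each). The log2 change was -0.98, with SE 0.26 and limma adjusted p = 0.0184. The call ended without IRE1dn array 3 (-0.77; limma adjusted p = 0.0812) and without ctrl array 2 (-0.77; 0.0572). Its relative GADD45B, another stress-induced member of the family, went the other way, from 45.8 ± 2.70 in ctrl to 107 ± 30.7 in IRE1dn (SD, n = 3 each; log2 change 1.16, SE 0.23; limma adjusted p = 0.00550), although for 1 of the 4 GADD45B probe sets the IRE1dn mean was the lower one. The difference between the changes of GADD45A and GADD45B was not tested.

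SESN1, a sestrin that restrains mTORC1 and supports peroxide defence, did not pass. It read 43.4, 30.5 and 38.1 in ctrl and 41.8, 52.0 and 47.0 in IRE1dn, and IRE1dn array 1 lay within the ctrl range. The log2 change was 0.32 (SE 0.23; 95% confidence interval -0.18 to 0.83; limma adjusted p = 0.308), so changes up to that upper bound were not resolved. It was 0.19 without ctrl array 2. A SESN1 start is preceded by an exact p53 decamer, shown in capitals because SESN1 and PLK2 were the measured genes with such a match and differed in their call.
SESN1, RefSeq GRCh38.p14, chr6:109009018-109009047, minus strand: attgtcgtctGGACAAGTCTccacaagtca

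TP53I3, a quinone oxidoreductase also known as PIG3, was also not called. Its signals were 73.7, 70.7 and 41.7 in ctrl and 76.2, 75.6 and 82.5 in IRE1dn. All IRE1dn arrays were above all ctrl arrays, but ctrl arrays 1 and 2 were only slightly below them and ctrl array 3 stood apart. The log2 change was 0.37 (SE 0.25; 95% confidence interval -0.18 to 0.91; limma adjusted p = 0.288), and it was 0.11 without ctrl array 3. CRYZ, a related quinone oxidoreductase, fell from 753 ± 290 to 327 ± 29.7 (SD, n = 3 each; log2 change -1.14, SE 0.24; limma adjusted p = 0.00689).

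GDF15, a secreted cytokine of the TGF-beta superfamily that rises in many stresses, showed the largest change of the set. Its probe set 221577_x_at read 47.3, 158 and 179.6 on ctrl arrays 1 to 3 and 20.4, 15.4 and 11.6 on IRE1dn arrays 1 to 3. No IRE1dn array reached the lowest ctrl array, and ctrl array 1 was well under the other ctrl arrays. The means were 128 ± 71.0 in ctrl and 15.8 ± 4.39 in IRE1dn (SD, n = 3 each), and the log2 change was -2.71 (SE 0.45; limma adjusted p = 0.00218). The change was -3.31 without ctrl array 1 and -2.03 with a pseudocount of 16, and 0.69% of all probe sets tested had a larger decrease. The probe set is of the x_at kind. The other GDF15 probe set, 221576_at, read 0.281, 0.387 and 0.270 in ctrl and 0.358, 0.317 and 0.188 in IRE1dn, far below the filter, and so gave no second measurement; the mean of both probe sets fell under the filter and was not tested.

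The 250 bases before the GDF15 start are printed as the counterpart of PLK2, with TATAA and the CCAAT box (here on the opposite strand) in capitals.
GDF15, RefSeq GRCh38.p14, chr19:18385908-18386157, plus strand: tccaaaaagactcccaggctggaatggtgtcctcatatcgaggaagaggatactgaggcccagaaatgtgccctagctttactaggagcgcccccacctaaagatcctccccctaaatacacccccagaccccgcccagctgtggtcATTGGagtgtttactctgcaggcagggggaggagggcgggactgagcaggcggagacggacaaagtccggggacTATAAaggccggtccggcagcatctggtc
Both PLK2 and GDF15, which moved in opposite directions, had TATAA shortly before the start. CCAAT, on either strand, occurred in 34.6% of windows. No exact p53 decamer, no TGACGTCA and no TGATGNAA, the composite element of ATF4 and C/EBP factors (found in 3.62% of windows on either strand), was among the letters of the GDF15 window, which says nothing about sites elsewhere.

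The ctrl arrays were the more variable for 6 of the 8 tested probe sets, by the SD of log2 signals, as they were for 67.3% of all tested. The ctrl arrays did not rank alike from gene to gene. Ctrl array 1 was the lowest ctrl array for GDF15, GADD45A and PPM1D, ctrl array 3 for PLK2 and TP53I3, and ctrl array 2 for SESN1. In the IRE1dn group, array 3 was the lowest for GDF15, GADD45A and the brightest MDM2 probe set, and also for PLK2, but the highest for PPM1D and TP53I3.

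The other p53 pathway genes came from lists written by hand, and their counts are read against the 31.3% of all genes called. Of 11 tested regulators of p53, 0 rose and 1 fell. Their median log2 change was -0.04. The gene that fell was CHEK2, the checkpoint kinase that phosphorylates p53 after DNA breaks, which measured 77.6 ± 4.0 in ctrl and 38.1 ± 7.85 in IRE1dn (SD, n = 3 each; log2 change -1.01, SE 0.22; limma adjusted p = 0.00766). ATM, ATR, CHEK1, USP7, EP300 and CREBBP were among the 10 that were not called. MDM4, the partner of MDM2, lay between 0.313 and 3.43 units on all arrays and was not tested.

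Of 19 tested genes listed by hand as p53 targets for arrest, repair and metabolism and not in the set, 2 rose and 4 fell. Their median log2 change was -0.12. Whether p53 controls each of them in these cells was not tested. CDKN1A, the p21 inhibitor of cyclin-dependent kinases and the most used readout of p53, read 325.9, 407.6 and 411.9 in ctrl and 446.1, 510.4 and 490.8 in IRE1dn. Its arrays did not overlap, with a log2 change of 0.34 (SE 0.17; 95% confidence interval -0.03 to 0.71), but it was not called (limma adjusted p = 0.145). CCNG2, an unconventional cyclin of quiescent cells, rose by 0.98 (SE 0.20; limma adjusted p = 0.00635) and PCNA, the DNA polymerase clamp, by 0.77 (SE 0.18; 0.0113). TIGAR, a phosphatase that lowers glycolytic flux, fell from 304 ± 87.9 to 119 ± 6.0 (SD, n = 3 each; log2 change -1.30, SE 0.22; limma adjusted p = 0.00259). CCNG1, cyclin G1, fell from 1057 ± 81.0 to 639 ± 68.2 (SD, n = 3 each; log2 change -0.73, SE 0.15; limma adjusted p = 0.00641), and TRIM22, also an interferon-induced gene, changed by -1.33 (SE 0.20; limma adjusted p = 0.00125).

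Of 11 tested p53 targets of the apoptotic group, 1 rose and 5 fell. Their median log2 change was -0.55. CASP1, the inflammatory caspase, fell from 74.2 ± 9.05 to 12 ± 2.83 (SD, n = 3 each; log2 change -2.47, SE 0.25; limma adjusted p = 0.000164), and the IRE1dn mean was the lower one for each of its 5 probe sets. BAX, which opens the mitochondrial outer membrane, read 152, 123 and 94.5 in ctrl and 74.3, 42.3 and 32.4 in IRE1dn (log2 change -1.34, SE 0.31; limma adjusted p = 0.00990). BID, which links death receptors to BAX, changed by -1.23 (SE 0.22; limma adjusted p = 0.00320). SIAH1, a ubiquitin ligase, was the gene that rose (0.65, SE 0.18; limma adjusted p = 0.0226); its call ended without any single IRE1dn array (limma adjusted p of 0.0718 to 0.0896) and with the mean of its 2 probe sets, of which 1 had the lower mean in IRE1dn (0.515).

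**Figure D4:**
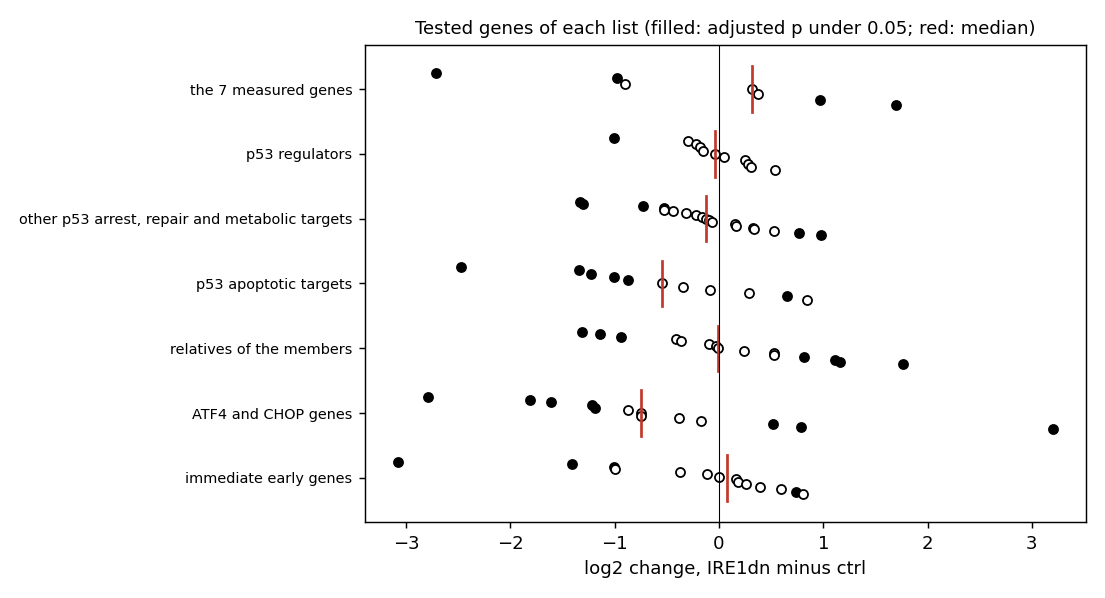
Log2 change, IRE1dn minus ctrl, of every tested gene of each list (points; filled where limma's adjusted p was under 0.05) with the list's median in red. The 7 measured genes spread from -2.71 to 1.70, and the medians of the lists run from -0.75 for the ATF4 and CHOP genes to 0.08 for the immediate early genes, beside 0.04 over all probe sets tested.

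Relatives of the measured genes were mixed. Of 15 tested, 4 rose and 3 fell. Their median log2 change was -0.01. Among polo-like kinases, PLK4, the centriole duplication kinase, rose with PLK2 (78.8 ± 15.8 in ctrl and 170 ± 5.35 in IRE1dn, SD, n = 3 each; log2 change 1.11, SE 0.20; limma adjusted p = 0.00363). PLK1, the mitotic kinase, fell from 143 ± 49.1 to 55.1 ± 10.9 (SD, n = 3 each; log2 change -1.31, SE 0.27; limma adjusted p = 0.00561). TGFB2, a ligand of the same superfamily as GDF15, rose by 1.76 (SE 0.30; limma adjusted p = 0.00239; 3 of 4 probe sets higher in value). TOB1, of the same antiproliferative family as BTG2, changed by -0.94 (SE 0.22; limma adjusted p = 0.0117) and was not called without IRE1dn array 3 (0.0530).

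ATF4 and CHOP genes were set beside GDF15 and GADD45A, which respond to the same factors. Of 13 tested, 3 rose and 5 fell. Their median log2 change was -0.75. ATF3, a stress-induced repressor that is also a p53 target, fell from 112 ± 29.5 to 14.4 ± 0.340 (SD, n = 3 each; log2 change -2.79, SE 0.24; limma adjusted p = 7.5e-05). DDIT3, which encodes CHOP, measured 225.5 ± 147 in ctrl (SD, n = 3), with ctrl array 1 the lowest at 63.8, and 37.3, 60.6 and 56.1 on IRE1dn arrays 1 to 3 (log2 change -1.81, SE 0.52; limma adjusted p = 0.0258). TRIB3, a pseudokinase induced by CHOP, changed by -1.61 (SE 0.54; limma adjusted p = 0.0475). The calls of DDIT3 and TRIB3 each ended without any single array other than ctrl array 1 (limma adjusted p of 0.0532 to 0.0880 and of 0.0588 to 0.120). The TRIB3 change was -0.88 without ctrl array 2, and its call also ended without the filter (0.0883), without the intensity trend (0.0735) and with a pseudocount of 16 (0.0546). STC2, a secreted glycoprotein, rose by 3.20 (SE 0.45; limma adjusted p = 0.000998; 2.54 without ctrl array 1). DDIT4 and VLDLR also rose, by 0.52 and 0.79, in calls that ended without any single IRE1dn array (limma adjusted p of 0.0913 to 0.182 and of 0.0792 to 0.146) and without ctrl array 1 (0.0972 and 0.104). For VLDLR the call also ended without ctrl array 3 (0.0819), and both calls ended with equal medians, without the filter and without the intensity trend (0.0698 to 0.0889 for DDIT4 and 0.0545 to 0.0611 for VLDLR). The DDIT4 call ended as well with the replicate number as a block (limma adjusted p = 0.0632).

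The level of the ATF4 and CHOP genes moved with single ctrl arrays. Their mean log2 signal, relative to the ctrl mean, was -0.83 on ctrl array 1, 0.67 on ctrl array 2 and 0.16 on ctrl array 3, and -0.63 to -0.49 on the IRE1dn arrays. In the mean of this list, ctrl array 1 was thus below the IRE1dn arrays. That mean includes STC2, which rose by 3.20. With STC2 left out, ctrl array 1 was no longer below every IRE1dn array, so this order depended on STC2. For ATF3, DDIT3, TRIB3, ASNS and CEBPB, the genes called lower, ctrl array 1 was above every IRE1dn array. Ctrl array 1 was below every IRE1dn array for STC2, VLDLR, DDIT4, ATF4, CHAC1, SLC7A11 and HERPUD1, and within their range for PPP1R15A. It was also the lowest ctrl array for GDF15 and GADD45A, at -1.20 and -0.45 on the same scale. GDF15 was still lower on every IRE1dn array, at -2.35 to -3.07. The part of these genes in the GDF15 and GADD45A values was not tested. Without single arrays, the list had 1 to 3 members that rose and 2 to 9 that fell. The count of called genes in the list, 8 here, was 4 without the filter and 4 without the intensity trend.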

How the data were processed

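Signal intensities per probe set, on a linear scale, were used as deposited for 6 arrays; the authors had already scaled them (each array's mean was 100.0 once 2% was trimmed from either end). GCOS 1.2 is named in the submitters' processing notes; how probes were summarised and background treated is not given in any source used here. Because of the scaling, a change shared by all transcripts would not be seen. Symbols came from the platform annotation, updated by gene identifier through RefSeq (19052 of 19064 probe sets with 1 symbol matched). The 62 control probe sets were left out, 1.75 (the 20th percentile of all values) was added, log2 was taken, and probe sets with a mean above the 40th percentile were kept, which gave 13329. The test was two-sided, without covariates, by lmFit and trended eBayes of limma 3.58.1 under R 4.3.3.

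The genes, lists and tests were chosen with earlier results of these data known. Genes named besides the set were CDKN1A, MDM4, ERN1 and XBP1, and in each list up to 3 per direction with the largest called change and no overlap of arrays; GADD45A's and TP53I3's relatives fall under that rule. ATM, ATR, CHEK1, USP7, EP300, CREBBP and the markers CD44, VIM, GFAP, S100B and SOX2 were named after their values were seen. Tested on simulated data (13329 probe sets, 200 changed per run), limma recovered 0% of changes of 0.5, 9.9% of 1 and 83.7% of 2 on the log2 scale. That setting differs from the data, where 29.1% of the probe sets were called. A larger share of changed probe sets loosens the Benjamini-Hochberg cutoff. The recovered shares are therefore not the power of this comparison. The number of arrays limits the precision. Same-numbered arrays of the groups were not treated as paired, since the labels give no pairing. Their deviations from the group means correlated at -0.122, 0.041 and 0.003, which cannot settle whether they were paired. Alternatives were 2 pseudocounts, 2 filters, 2 scalings, 2 ways to combine probe sets, 2 variance models, a block for the replicate number, and leaving out each array.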

Additional observations from a re-analysis of the deposited data

How the results depend on the processing

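All 8 tested probe sets of the measured genes, and CDKN1A, kept their direction in each of the alternatives that tested them (up to 17). PLK2 and GDF15 stayed past the threshold in each of those (GDF15 was not tested with the mean of its probe sets), with changes from 1.39 to 1.99 and from -3.31 to -2.03. The calls of GADD45A and PPM1D ended without single arrays, as given with those genes. The number of called genes was 2 to 4 when single arrays were left out, 3 with the mean of a gene's probe sets and 5 without the intensity trend, where MDM2 passed. Called probe sets numbered 3876; the counts were 2139 to 4049 without single arrays (2139 without IRE1dn array 2 and 2280 without IRE1dn array 3), and 2468 genes with 1 probe set per gene and 2331 with the mean of a gene's probe sets, where fewer features were tested. Genes of the 6 lists called together numbered 32, and 21 to 33 without single arrays. The lists had 11, 19, 11, 15, 13 and 14 tested genes, with some genes in more than 1 list. Of all genes tested, 31.3% were called. Among all probe sets tested the called share was 29.1%, and 16.0% to 30.4% without single arrays. In the fit with the replicate number as a block, for which the labels give no pairing, 3491 probe sets and the same 4 genes were called. With 3 arrays a group and dim signals, MDM2 could not be resolved.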

Other observations

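Immediate early genes, the serum-induced class to which PLK2 and BTG2 also belong, were called in 4 of 14 cases, a share near the 31.3% called among all genes tested. Of these, 1 rose and 3 fell. The median log2 change of the 14 was 0.08. DUSP6, the phosphatase that turns off ERK, fell from 293 ± 70.1 to 33.2 ± 9.0 (SD, n = 3 each; log2 change -3.08, SE 0.25; limma adjusted p = 4.12e-05), and the IRE1dn mean was the lower one for each of its 3 probe sets. DUSP1, a related phosphatase, changed by -1.41 (SE 0.31; limma adjusted p = 0.00843), and the AP-1 subunit JUNB by -1.01 (SE 0.28; 0.0212), in a call that ended without IRE1dn array 1 (0.0694) or 2 (0.0605) or ctrl array 1 (0.0551). The zinc finger factor KLF6 rose by 0.74 (SE 0.20; limma adjusted p = 0.0205), in a call that ended without IRE1dn array 2 (0.0860) or 3 (0.102).

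For each called gene, the genes with the most similar pattern were those with the smallest root mean square distance between log2 signals centred on their mean over the 6 arrays, among 7807 genes. The arrays share the group difference, so this is a description. GDF15 was nearest to ARC (0.31) and RRAD (0.32), where the median gene lay at 1.52. RRAD, a small GTPase, read 121.5, 216.4 and 332.5 in ctrl and 27.2, 24.1 and 22.8 in IRE1dn, with ctrl array 1 the lowest ctrl array, as for GDF15. ARC, a neuronal immediate early gene, was below the tested level on every IRE1dn array (4.4, 2.51 and 1.30). GADD45A was nearest to PLCB1 (0.07) and TIMM44 (0.10), with the median gene at 0.66. PLK2 was nearest to DKFZP586I1420 (0.18) and MECOM (0.19), with the median gene at 0.95. PPM1D was nearest to SPTBN1 (0.06) and HLA-C (0.08), with the median gene at 0.62.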
